A study of Mus musculus with 8 samples.

Results

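Enzymes that make serine, split it to glycine and pass its carbon through folate were measured by RNA sequencing in undifferentiated CAD cells (Cath.a differentiated), a catecholamine-producing neuronal line of the mouse, kept in 8% fetal bovine serum. The set holds 10 of the 23038 genes in the deposited table, taken by symbol: Phgdh, Psat1, Psph, Shmt1, Shmt2, Mthfd1, Mthfd2, Mthfd1l, Aldh1l2 and Gldc. In 4 libraries (PFN1 KO) the cells had been edited by CRISPR/Cas9 at Pfn1, which encodes profilin 1, a binder of actin monomers. The other 4 libraries are titled as wild-type controls and carry the genotype label Control KO. What the control cells received, and whether the 4 replicates of a condition were clones or cultures, is not given in the sources used here, so the spread between libraries may be technical. The set was selected on the measured knockout-over-control difference in RPKM: it was put together after Psat1 and Shmt2 had been seen to be lower in the knockout libraries. Differences of the 10 genes between the groups are therefore given as a description, without p-values.

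Cells build serine from the glycolytic intermediate 3-phosphoglycerate: PHGDH oxidises it, PSAT1 transfers an amino group from glutamate, and PSPH removes the phosphate. Serine hydroxymethyltransferase then splits serine into glycine and a carbon unit carried by tetrahydrofolate, in the mitochondrion through SHMT2 and in the cytosol through SHMT1. In the mitochondrion MTHFD2 oxidises the folate-bound unit, MTHFD1L releases it as formate and ALDH1L2 oxidises it to carbon dioxide, while GLDC, a subunit of the glycine cleavage system, draws a further unit from glycine. MTHFD1, a cytosolic enzyme with the activities split between MTHFD2 and MTHFD1L, takes up the formate for purine and thymidylate synthesis or works in the opposite direction. The transcription factor ATF4 is known to drive the serine synthesis genes together with Shmt2 and Mthfd2.

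Library depth, estimated from the steps between low values, was 26300000 to 34600000 reads, and the members were backed by 991 (Phgdh, lowest library) to 17143 reads (Psat1, highest library) each. Pfn1 transcript lay at 399 to 436 RPKM (reads per kilobase of gene, scaled to library depth) in control and 130 to 152 RPKM in knockout libraries, and the knockout libraries kept 32.9% of the control mean. Of 10 noradrenergic and neuronal markers 9 reached a mean of 1 RPKM in at least 1 group, Ddc being the exception at 0.339 ± 0.0699 RPKM in control libraries (SD, n = 4), and their sum was 649 to 711 RPKM in control and 858 to 915 RPKM in knockout libraries. These markers differed between the groups beside the enzymes: Th, the tyrosine hydroxylase gene, fell to 34.3% of control and lay at 0.597 to 0.897 RPKM in knockout libraries, Dbh fell to 32.7% and Chgb rose to 214% (limma, adjusted p = 3.58e-05, 8.41e-08 and 1.35e-06). Their part in the differences of the enzymes was not tested. The sum over 5 astrocyte markers stayed at 0.149 to 0.432 RPKM in control and 0.16 to 0.306 RPKM in knockout libraries, with Aqp4 at 0 throughout. Microglial markers (5 genes) summed to 0.0761 to 0.16 and 0.0354 to 0.122 RPKM, and fibroblast markers (5 genes, Col3a1 at 0) to 2.74 to 3.48 and 2.73 to 3.22 RPKM. Among the fibroblast markers Dcn reached a mean of 1 RPKM over the libraries. Oligodendrocyte markers (4 genes, Mag at 0) summed to 0.642 to 1.16 and 1.23 to 1.54 RPKM, and endothelial markers (4 genes, Tie1 at 0) to 2.23 to 3.29 and 3.05 to 3.57 RPKM. Pecam1, an endothelial marker, likewise reached a mean of 1 RPKM. The ribosomal precursor Rn45s took 9.15 to 14.18% of the scaled reads in control and 8.4 to 11.86% in knockout libraries, with control library 4 the lowest control and knockout library 1 the highest knockout. In control library 4, 8 of the 10 members had their highest control value. Its median-of-ratios scaling factor was 1.03, against 0.951 to 0.967 for the other control libraries, so values there ran high in general beside those controls. The knockout libraries had factors of 0.998 to 1.04, so control library 4 lay within their range. The share over all genes was not counted. With totals that leave out Rn45s the log2 fold change was -0.55 for Psat1, -0.54 for Shmt2, 0.13 for Mthfd1 and 0.16 for Gldc, and without control library 4 and knockout library 1 it was -0.49, -0.48, 0.20 and 0.17.

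In the sequence before the annotated start all 3 serine synthesis genes carry CCAAT boxes, the element bound by NF-Y (in Psph on the opposite strand), and Shmt2 carries none. The 250 bases before the start of Psat1 (chr19:15925060-15925309), Phgdh (chr3:98339970-98340219) and Shmt2 (chr10:127522445-127522694), all on the minus strand of GRCm38.p6 in RefSeq, are shown with CCAAT in capitals. These genes were lower in the knockout libraries, as was Psph, whose sequence is not shown.
Psat1: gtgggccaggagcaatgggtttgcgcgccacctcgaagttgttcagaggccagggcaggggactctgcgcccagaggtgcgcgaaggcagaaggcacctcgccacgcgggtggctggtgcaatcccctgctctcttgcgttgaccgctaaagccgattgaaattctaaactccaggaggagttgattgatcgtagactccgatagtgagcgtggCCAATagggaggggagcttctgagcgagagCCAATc
Phgdh: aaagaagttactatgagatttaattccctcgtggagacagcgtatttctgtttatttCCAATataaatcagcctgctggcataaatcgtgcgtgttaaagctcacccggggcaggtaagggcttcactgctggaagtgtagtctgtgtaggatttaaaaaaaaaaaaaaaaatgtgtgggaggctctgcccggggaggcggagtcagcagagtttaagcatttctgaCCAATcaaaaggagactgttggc
Shmt2: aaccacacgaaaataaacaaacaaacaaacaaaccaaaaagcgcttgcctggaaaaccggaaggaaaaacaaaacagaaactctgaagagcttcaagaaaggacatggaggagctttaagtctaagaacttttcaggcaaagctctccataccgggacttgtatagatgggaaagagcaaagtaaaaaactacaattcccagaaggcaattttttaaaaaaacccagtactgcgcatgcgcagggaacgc
In Psat1 the boxes begin 36 and 6 bases before the start, with another 24 bases into the transcript, and in Phgdh they begin 193 and 23 bases before it. RefSeq windows from 250 bases before to 50 after a start were held for 9 of the 10 members, with 1 further start of Psat1 that has no box. CCAAT on either strand (CCAAT or ATTGG) was in a window of 7 of those 9 genes, all but Shmt2 and Mthfd1l, and in 37.4% of all 32851 windows. The core of the amino acid response element through which ATF4 acts, TGATGNAA on either strand, was in none of the 9 genes' windows and in 3.97% of all windows. The E-box CACGTG, which Myc proteins bind, was likewise in none of them, against 7.15% of all windows. At such low shares, finding none in 9 genes is not unusual, and sequence outside the windows was not searched. Nothing is therefore read from these absences.

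All 10 members were expressed well above the filter of a group mean of 1 RPKM that left 11465 genes for testing. In control libraries Psat1 led at 207 ± 6.01 RPKM (SD, n = 4), above 98.4% of the tested genes, followed by Shmt2 at 143 ± 3.63 and Mthfd2 at 131 ± 5.37 RPKM, whose values overlapped. Psph stood at 65.3 ± 2.26 RPKM, Mthfd1l at 50.8 ± 0.718, Mthfd1 at 48.9 ± 3.07 and Shmt1 at 41.0 ± 2.28 RPKM. Mthfd1l and Mthfd1 overlapped. Phgdh reached 23.9 ± 0.568 RPKM, and Gldc and Aldh1l2, which overlapped, 16.6 ± 0.992 and 14.5 ± 1.08 RPKM. The low rank of Phgdh beside its pathway partners is uncertain, since RefSeq lists a pseudogene, Phgdh-ps1, and how reads were divided between copies is not stated.

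**Figure D1:**
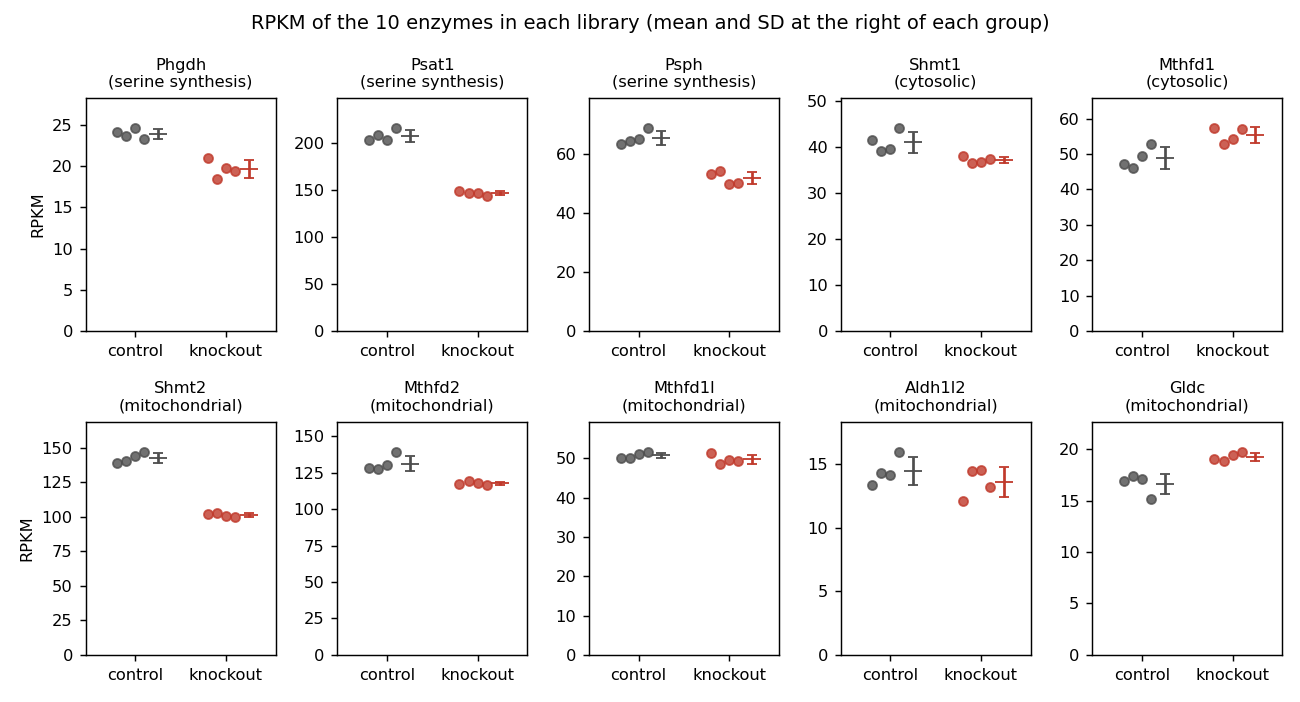
RPKM of each of the 10 enzymes (linear axis from 0) in 4 control and 4 knockout libraries, 1 point per library, with the group mean and SD drawn to the right. Psat1 and Shmt2 are the members with the widest gap between the groups, and the groups overlap for Mthfd1, Mthfd1l and Aldh1l2.

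All 3 enzymes of serine synthesis had lower transcript in the knockout libraries. In bulk RNA, fewer cells with a transcript and less of it per cell cannot be told apart. Psat1, the aminotransferase, lay at 203, 209, 203 and 215 RPKM in control libraries 1 to 4 and at 149, 147, 146 and 144 RPKM in knockout libraries 1 to 4. Every knockout library was below every control, at 70.7% of the control mean, with a log2 fold change of -0.50 (SE 0.032, limma on log2(RPKM + 1), as for the fold changes of the other members). Psph, the phosphatase that ends the pathway, lay at 63.4, 64.3, 65.1 and 68.5 RPKM in control and at 53.0, 54.0, 49.8 and 50.1 RPKM in knockout libraries. The groups did not overlap and the knockout mean was 79.2% of control (log2 fold change -0.33, SE 0.041). The RefSeq span of Psph overlaps that of Cct6a, a chaperonin subunit gene at 923 RPKM averaged over the libraries, and the sources used here do not say if counting was stranded, so the level of Psph is uncertain. Cct6a itself stood at 95.7% of control without passing (limma, adjusted p = 0.0852). Its groups did not overlap either, at 920 to 977 RPKM in control and 894 to 915 RPKM in knockout libraries. Its part in the difference of Psph between the groups was not tested. Phgdh, the dehydrogenase that commits carbon to the pathway, lay at 24.1, 23.6, 24.6 and 23.3 RPKM in control and at 20.9, 18.4, 19.8 and 19.4 RPKM in knockout libraries. The groups were again apart, at 82.2% of control (log2 fold change -0.27, SE 0.046). By fold change the first enzyme of the pathway differed least and the second most, a difference between genes that was not tested.

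The hydroxymethyltransferases differed in extent. Shmt2, the mitochondrial enzyme, lay at 139, 141, 144 and 147 RPKM in control libraries and at 102, 103, 101 and 99.9 RPKM in knockout libraries. The highest knockout value was far below the lowest control value, and the knockout mean was 71.1% of control (log2 fold change -0.49, SE 0.032). Shmt1, the cytosolic enzyme, lay at 41.5, 39.0, 39.4 and 44.0 RPKM in control and at 38.0, 36.4, 36.6 and 37.3 RPKM in knockout libraries. All knockout values were below all control values, but by a narrow margin, at 90.5% of control (log2 fold change -0.14, SE 0.044).

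Downstream of them the mitochondrial enzymes went different ways. Mthfd2, the dehydrogenase and cyclohydrolase, lay at 128, 128, 130 and 139 RPKM in control and at 117, 119, 118 and 117 RPKM in knockout libraries. The groups did not overlap, at 89.8% of control (log2 fold change -0.15, SE 0.035). Mthfd1l, the formate-releasing synthetase, spanned 50.1 to 51.6 RPKM in control and 48.7 to 51.3 RPKM in knockout libraries, with overlap and a log2 fold change of -0.03 (SE 0.034). Aldh1l2 spanned 13.4 to 16.0 and 12.1 to 14.6 RPKM, again with overlap, and its log2 fold change of -0.09 (SE 0.068) became 0.01 without control library 4 and knockout library 1, the highest and the lowest of the 8 values. Gldc was higher in the knockout libraries: it lay at 16.9, 17.4, 17.1 and 15.2 RPKM in control and at 19.0, 18.9, 19.4 and 19.7 RPKM in knockout libraries. Its groups did not overlap, and the knockout mean was 116% of control (log2 fold change 0.20, SE 0.049), or a log2 fold change of 0.13 with median-of-ratios scaling.

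Mthfd1, which joins the cytosolic to the mitochondrial arm, was also higher. It lay at 47.2, 46.0, 49.5 and 52.9 RPKM in control and at 57.2, 52.7, 54.3 and 57.1 RPKM in knockout libraries, with knockout library 2 just below control library 4. The knockout mean was 113% of control (log2 fold change 0.18, SE 0.049), and the log2 fold change was 0.11 with median-of-ratios scaling. The cytosolic pair therefore lay on opposite sides of control, Shmt1 lower and Mthfd1 higher, as did Shmt2 and Gldc in the mitochondrion.

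**Figure D2:**
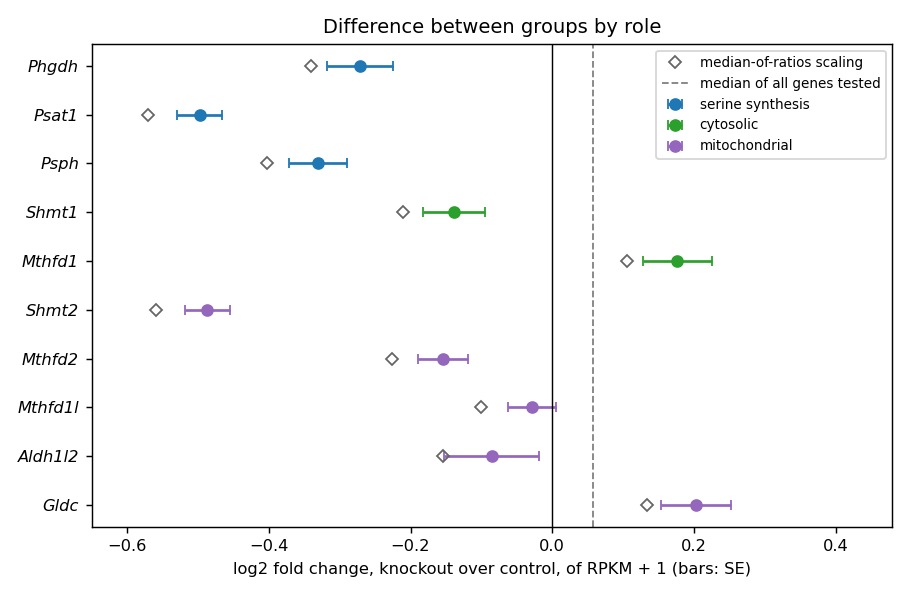
Log2 fold change of RPKM + 1, knockout over control, of the 10 enzymes (points, with SE bars, coloured by role) with the values after median-of-ratios scaling (open diamonds) and the median of all tested genes at 0.06 (dashed line). The 3 serine synthesis genes and Shmt2 lie lowest and Gldc and Mthfd1 highest.

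The limma fit across all genes passed 5261 genes, 45.9% of those tested, at the threshold of 0.05 after Benjamini-Hochberg adjustment, 3489 as higher and 1772 as lower. Median-of-ratios scaling turned this split to 2578 higher and 2871 lower. Of the 10 members 6 passed that threshold as lower, against 15.5% of all tested genes, and 2 as higher, against 30.4%. With median-of-ratios or upper-quartile scaling neither Mthfd1 nor Gldc passed as higher, and Aldh1l2 passed as lower. Shmt1 no longer passed without control library 1, knockout library 2 or knockout library 3. The groups did not overlap for 6 members that were lower, against 14.7% of all genes, and for 1 that was higher, against 26.7% (41.4% in either direction). The median log2 fold change was -0.33 for the 3 serine synthesis genes, 0.02 for the 2 cytosolic and -0.09 for the 5 mitochondrial folate genes, and 0.06 for all tested genes. Nothing is read from these counts, since values of the same comparison led to the choice of the set. The authors' deposited table gives log2 fold changes from -0.50 (Psat1) to 0.21 (Gldc) for the members. No member lies on chromosome 2, whose 947 tested genes had a median log2 fold change of 0.26 against 0.04 elsewhere.

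Ratios of mitochondrial to cytosolic enzyme within a library do not depend on how libraries are scaled. Shmt2 exceeded Shmt1 in 8 of 8 libraries and Mthfd2 exceeded Mthfd1 in 8 of 8 (mean log2 ratios of RPKM 1.63 and 1.26; exact sign-flip permutation test over libraries, two-sided, p = 0.00781 each, the smallest that 8 libraries allow, and 0.0117 adjusted over the 3 ratios). Mthfd1l was higher than Mthfd1 in 3 of 8 libraries with a mean log2 ratio of -0.05 (exact sign-flip permutation test, adjusted p = 0.305). These tests pool control and knockout libraries, whose ratios did not overlap, so the p-values describe neither group by itself. All libraries come from the same cell line, and a bias of RPKM between genes that they share would enter every ratio alike. The tests cannot separate such a bias from a difference in transcript level.

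Each ratio was lower in the knockout libraries, which is a description of the comparison that led to the set. Shmt2 over Shmt1 was 3.35, 3.61, 3.66 and 3.34 in control libraries and 2.69, 2.83, 2.76 and 2.67 in knockout libraries. Its mean went from 3.49 ± 0.17 to 2.74 ± 0.07 (SD, n = 4 each), or 78.5% of control, without overlap. Mthfd2 over Mthfd1 was 2.71, 2.78, 2.62 and 2.63 in control and 2.05, 2.26, 2.17 and 2.04 in knockout libraries, going from 2.69 ± 0.074 to 2.13 ± 0.102, or 79.3%. Mthfd1l over Mthfd1 was 1.06, 1.09, 1.03 and 0.975 in control and 0.897, 0.923, 0.916 and 0.864 in knockout libraries, at 86.5% of control. The groups did not overlap for any of the 3 ratios. For Shmt2 over Shmt1 the numerator moved more than the denominator, and for Mthfd2 over Mthfd1 both moved in opposite directions. The log2 fold changes of Mthfd2 and Mthfd1 were -0.15 and 0.18, and -0.23 and 0.105 with median-of-ratios scaling. Those of Mthfd1l and Mthfd1 were -0.03 and 0.18, but -0.10 and 0.105 with median-of-ratios scaling. How the ratios of Mthfd2 and of Mthfd1l to Mthfd1 divide between numerator and denominator therefore depends on scaling.

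**Figure D3:**
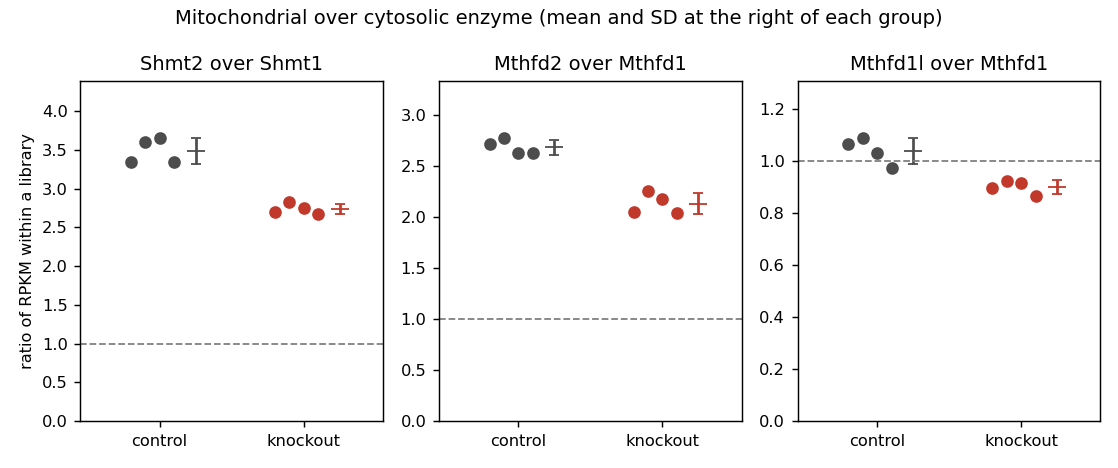
Ratio of RPKM of the mitochondrial to the cytosolic enzyme within each library (linear axes from 0, 1 point per library, mean and SD to the right, dashed line at 1). Shmt2 over Shmt1 and Mthfd2 over Mthfd1 stay above 2 in every library, and all 3 ratios are lower in the knockout group.

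The profiles of Psat1 and Shmt2 over the 8 libraries were compared as a description, since their lower values in the knockout led to the set. After centring each gene on its mean, the root mean square difference between their log2(RPKM + 1) profiles was 0.022. Among named genes outside the set, the 5 nearest to Psat1 were Actb at 0.032, Nfkbia at 0.034, Smpd3 at 0.042, Tln2 at 0.043 and Arhgef17 at 0.045. The 5 nearest to Shmt2 were Tln2 and Smpd3 at 0.032, Nfkbia and Mras at 0.033 and Actb at 0.034. The gap between the groups enters this measure, so the likeness restates in part the difference already given. In knockout libraries Actb and Smpd3 stood at 71.3% of control, Tln2 at 71.6%, Nfkbia at 72.3%, Mras at 65.9% and Arhgef17, a low transcript on the log2(RPKM + 1) scale, at 55.1%.

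Around these enzymes, 109 genes were listed by role, of which 91 were tested, 25 rose and 19 fell, or 19 and 36 with median-of-ratios scaling. The lists were written with earlier results of these data known, and their calls come from the fit across all genes (limma, Benjamini-Hochberg adjusted over all 11465 genes), against the background of 30.4% higher and 15.5% lower.

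Ggh, Fpgs, Slc19a1 and Folr1 rose among the genes for folate uptake, storage and reduction. Of 7 tested genes of that list 4 rose and 0 fell (median log2 fold change 0.31 against 0.06 for all genes), and 4 and 1 with median-of-ratios scaling, in which Slc25a32 fell (adjusted p = 0.0475). Ggh, the lysosomal hydrolase that removes glutamates from stored folate, rose from 1.94 ± 0.351 to 3.39 ± 0.546 RPKM (adjusted p = 0.000943), and Fpgs, the synthetase that adds them, from 19.3 ± 1.23 to 26.9 ± 1.49 RPKM (adjusted p = 5.64e-05). Fpgs lies on chromosome 2, whose genes were shifted upward as noted. Slc19a1, the reduced folate carrier, rose from 10.5 ± 0.695 to 13.9 ± 0.576 RPKM, and the folate receptor gene Folr1, named after its value was seen, rose to 127% of control. Slc25a32, the mitochondrial folate carrier, stood at 94.5% of control without passing the test, as did Slc46a1, the proton-coupled folate transporter, at 97.6% (adjusted p = 0.764), which is named after its value was seen.

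Of 8 other tested folate enzymes 4 rose and 0 fell (median 0.13), and 2 rose with median-of-ratios scaling, which also gave 1 that fell. Mtrr, which reactivates methionine synthase, rose to 115% of control. Atic, a purine enzyme that uses formyl folate, rose to 110% of control, a call lost with median-of-ratios or upper-quartile scaling, with totals without Rn45s and without control library 2 (adjusted p from 0.0552 to 0.252), where 2 genes of the list rose. Tyms, the thymidylate synthase gene, stood at 94.1% of control without passing (adjusted p = 0.16) and fell with median-of-ratios scaling (adjusted p = 0.0133). Mthfd2l, a mitochondrial relative of Mthfd2, lay at 4.21 ± 0.311 and 4.90 ± 0.506 RPKM without passing (adjusted p = 0.063), and it rose without control library 4 (adjusted p = 0.0274) and without knockout library 1 (adjusted p = 0.0179). The cytosolic counterpart of Aldh1l2, Aldh1l1, was listed at 0 in all 8 libraries.

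Dld, Gcsh and Amt, the other subunits of the cleavage system, were not among the genes that rose. Of 7 tested genes of glycine cleavage and breakdown 1 rose and 2 fell (median -0.03). Dld, the dehydrogenase subunit that the cleavage system shares with other complexes, fell from 81.9 ± 3.37 to 68.8 ± 4.23 RPKM (adjusted p = 0.00139). Gcsh, the carrier subunit, stood at 97.7% and Amt, the aminomethyltransferase, at 106% of control from 0.956 ± 0.451 RPKM, and neither passed. Sardh, which demethylates sarcosine to glycine and lies on chromosome 2, rose to 129% of control, while Gcat, which splits aminoketobutyrate to glycine, fell to 88.7%, a call lost without control library 3 or knockout library 4 (adjusted p = 0.0515 and 0.0501), leaving 1 gene that fell. Without control library 4, 2 genes of the list rose.

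Both enzymes that carry serine into cysteine fell. Of 10 tested genes of the methionine cycle and transsulfuration 2 rose and 2 fell (median -0.08), and 1 and 5 with median-of-ratios scaling. Cth, the cystathionine lyase gene, fell from 10.3 ± 1.27 to 5.63 ± 0.652 RPKM, 54.8% of control (adjusted p = 4.09e-05), and Cbs, which joins serine to homocysteine, from 24.2 ± 1.06 to 17.1 ± 0.985 RPKM, 70.8% of control (adjusted p = 2.71e-05). For both genes every knockout library lay below every control. Mat2a, which makes S-adenosylmethionine, rose to 119% of control with overlapping groups, and Mtap, which salvages methylthioadenosine, to 109%, and both lost the call without control library 1, 2 or 3 or without knockout library 2, 3 or 4, where 0 genes of the list rose (adjusted p from 0.0535 to 0.0743 for Mat2a and from 0.0559 to 0.303 for Mtap over the alternatives in which each was lost).

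Serine and glycine transport and other uses of serine gave 5 rises and 2 falls among 19 tested genes (median 0.05), and 5 and 6 with median-of-ratios scaling. Sfxn3, a mitochondrial sideroflexin, rose from 6.11 ± 0.792 to 8.21 ± 0.429 RPKM, and Sfxn1, the serine carrier of the mitochondrial inner membrane, named after its value was seen, rose to 120% of control. Serinc3 (on chromosome 2) rose to 121% and Sptlc1, a subunit of the enzyme that joins serine to palmitoyl-CoA, to 123%. Slc6a9, the plasma membrane glycine transporter, fell to 79.6% of control. Purine synthesis gave 5 rises and 2 falls among 12 tested genes (median 0.03), and 2 and 5 with median-of-ratios scaling; without control library 2 the rises were 3. Adsl and Impdh1 rose to 128% and 123% of control, and Prps2 and Ppat, the gene of the committed step, fell to 76% and 85.4%. Among 5 genes of glycolysis around 3-phosphoglycerate, Eno1 rose to 136% of control and none fell, whereas 1 fell with median-of-ratios scaling. Processed copies of Gapdh, Pgk1, Pgam1 and Eno1 are common in the mouse genome and their reads could have been split, so the levels of these genes are uncertain.

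Of 20 tested genes that respond to ATF4 and amino acid supply 10 fell and 2 rose (median -0.12), and under median-of-ratios scaling 14 fell and 2 rose. Slc7a5, an amino acid transporter, fell from 138 ± 4.49 to 106 ± 2.68 RPKM (adjusted p = 8.86e-06), and Ddit3, which encodes the stress factor CHOP, fell to 76.9% of control. Slc7a11, the cystine transporter, rose to 139% of control, and Cebpb, on chromosome 2, rose to 140%; without control library 4 the rises were 4, and without control library 4 and knockout library 1 the list gave 3 rises and 7 falls. Atf4 transcript itself stood at 179 ± 8.93 RPKM in control and 174 ± 3.73 RPKM in knockout libraries, without passing the test (adjusted p = 0.43), but it fell with median-of-ratios and upper-quartile scaling (adjusted p = 0.024 and 0.031). ATF4 protein is controlled largely through translation, which was not measured.

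Of 5 tested genes for other regulators of serine synthesis 3 rose and 1 fell (median 0.19), and 1 and 1 with median-of-ratios scaling. Myc fell from 42.2 ± 0.606 to 35.7 ± 2.85 RPKM (adjusted p = 0.00322), and Mycn rose to 114% of control (adjusted p = 0.00322). With median-of-ratios scaling Mycn did not pass the test (adjusted p = 0.0725). Nfe2l2, the gene for NRF2, lies on chromosome 2 and rose to 118% of control. Kdm4c, a histone demethylase gene, rose to 116%, a call lost without control library 1 or 3, without knockout library 2, 3 or 4, without the filter on low values and with median-of-ratios or upper-quartile scaling (adjusted p = 0.0504 to 0.0998 over the alternatives in which it was lost). Without control library 4, 2 genes of the list fell.

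**Figure D4:**
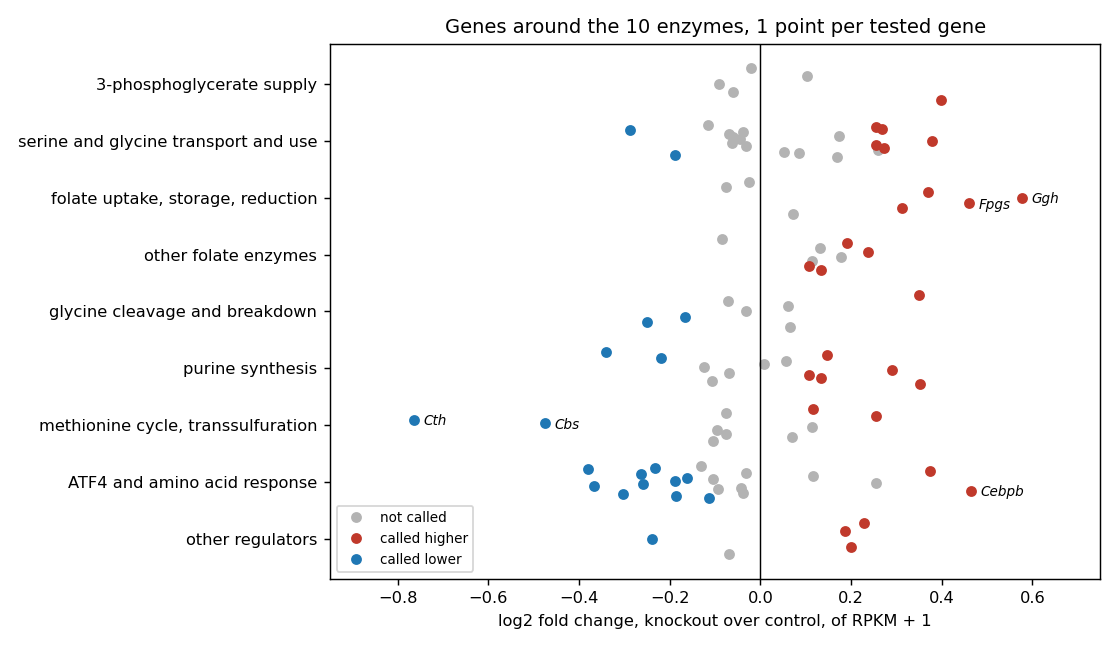
Log2 fold change of RPKM + 1, knockout over control, for each tested gene of the 9 lists around the enzymes, 1 point per gene (red, called higher; blue, called lower; grey, not called). Ggh and Fpgs lie highest among folate genes, and Cth and Cbs lowest among all.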

How the data were processed

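RNA from 4 control and 4 PFN1 KO libraries of CAD cells was sequenced, and the authors deposited 1 table of 23038 genes with RPKM per library and, from their own comparison, a log2 fold change, a log2 CPM and a p-value per gene. Tools named in the submitters' processing notes are TopHat, Bowtie, RSEM, edgeR and CASAVA; the build named there is hg19, although the genes are mouse; no gene coordinate was taken from the table, and strand use in counting is not given in the sources used here. The table holds no counts; depth was estimated from the steps of low values, of which 81.5% of 3235 genes gave whole reads within 0.02, too few for a count test.

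The 11465 genes whose mean reached 1 RPKM in either group were tested on log2(RPKM + 1) with limma 3.58.1 in R 4.3.3 (trended variance, two-sided, Benjamini-Hochberg adjustment over all tested genes, threshold 0.05). Such fold changes understate those of low genes. In simulated data with 200 changed genes among 11318, 66% of 1.25-fold and 97% of 1.5-fold changes were recovered, with 5.78% false among those called. The simulation changed as many genes upward as downward, with a single fixed spread between libraries. In the data 45.9% of tested genes passed, so the simulated rates may not hold there. Libraries were grouped by title. Gene numbers of 22959 genes matched RefSeq GRCm38.p6, which gave chromosomes and promoter windows. In each list up to 4 called genes with the largest fold change, at most 3 in 1 direction, are named, plus Atf4, Myc, Tyms, Aldh1l1, Mthfd2l, Slc25a32, Gcsh, Amt and Dld whatever their values; some genes under this rule are not reported here. The members and lists were chosen with earlier results of these data known. Alternatives were other scalings, filters and pseudocounts, a replicate block, and libraries left out; totals without Rn45s were added after the data had been seen.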

Additional observations from a re-analysis of the deposited data

How the results depend on the processing

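Median-of-ratios scaling moved the median log2 fold change of all tested genes from 0.06 to -0.01; 2871 genes were then lower, and 2758 with upper-quartile scaling, with 36 and 34 lower among the genes listed around the enzymes. Leaving out 1 library at a time gave 2888 to 3941 higher and 1447 to 1657 lower genes, and 21 to 32 higher and 17 to 20 lower listed genes. Without control library 4 and knockout library 1 there were 4415 higher and 1572 lower genes, and 31 and 18 among the listed genes. Over 17 alternatives the log2 fold change of Psat1 ranged from -0.57 to -0.48, of Shmt2 from -0.56 to -0.47, of Psph from -0.40 to -0.31, of Phgdh from -0.34 to -0.24, of Shmt1 from -0.21 to -0.10, of Mthfd2 from -0.23 to -0.12, of Mthfd1 from 0.10 to 0.21 and of Gldc from 0.13 to 0.22. Aldh1l2 alone among the members turned, to 0.01 without control library 4 and knockout library 1. With totals that leave out Rn45s, 22 listed genes were higher and 28 lower. Same-numbered libraries did not deviate together (correlations 0.18, 0.02, -0.19 and -0.08), so the numbers were not taken as pairs; a replicate block gave 3477 higher and 1728 lower genes, and 26 and 18 among the listed genes. The mean log2 ratio of Shmt2 to Shmt1 stayed between 1.59 and 1.66, and of Mthfd2 to Mthfd1 between 1.23 and 1.29, with any 1 library left out. The causes of these shifts were not tested.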

Other observations

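Sdsl, which encodes a serine dehydratase-like enzyme, fell under the filter on low values and was not tested; it is named after its values were seen. It was listed at 1.06, 0.510, 1.04 and 1.18 RPKM in control libraries 1 to 4 and at 0.304, 0.028, 0 and 0.0795 RPKM in knockout libraries 1 to 4, so every knockout library lay below every control. Its paralog Sds lay at 0.169 ± 0.0555 RPKM in control and 0.349 ± 0.152 RPKM in knockout libraries (SD, n = 4 each), with overlap.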
